A study of Mus musculus with 12 samples.

Results

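Fatty acid and triglyceride synthesis is represented here by 35 genes chosen by symbol, out of 31099 genes in the count table. All 35 were among the 18855 genes with enough counts to be tested. The RNA came from cells sorted by flow cytometry out of the fat of 3-day-old CD-1 mice of mixed sex, and the labels name no genetic change or treatment in any group. The 4 groups of 3 libraries were progenitors and preadipocytes of perivascular fat (the fat along the aorta), DPP4+ progenitors of inguinal white fat, and ICAM1+ preadipocytes of inguinal white fat. Per the labels, a replicate is tissue pooled from several mice, and perivascular and inguinal replicates of the same number share their mice. No source used here gives the surface markers of the perivascular sort, so depot and sort gate cannot be told apart in any comparison between depots.

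New fatty acids are built in the cytosol. ATP citrate lyase (Acly) and acetyl-CoA synthetase (Acss2) supply acetyl-CoA, acetyl-CoA carboxylase (Acaca) makes malonyl-CoA from it, and fatty acid synthase (Fasn) joins these units with NADPH that malic enzyme (Me1) helps to provide. Elongases and desaturases then lengthen the chains and add double bonds. Triglycerides need a second ingredient, glycerol 3-phosphate, onto which acyl chains are loaded in turn by glycerol-3-phosphate acyltransferase (Gpam), the AGPAT enzymes, the lipin phosphatases and finally the diacylglycerol acyltransferases (Dgat1, Dgat2). In fat, the transcription factors SREBP1 (Srebf1), ChREBP (Mlxipl) and LXR alpha (Nr1h3) and the small nuclear protein SPOT14 (Thrsp) are known for promoting these steps.

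Levels are CPM, read counts scaled to library size, here with TMM factors, a method that aligns libraries on the bulk of their genes. They are given for libraries 1, 2 and 3 in that order, or as mean ± SD (n = 3). Differences are log2 fold changes ± standard error from edgeR's quasi-likelihood test, and a call is an adjusted p under 0.05 over all 18855 genes. Gene positions are those of GENCODE M21 on build GRCm38 (mm10). Total counts were between 15614628 and 25674461 per library. The 35 genes together took 0.216 to 0.237% of the counts in perivascular progenitors, 0.290 to 0.389% in perivascular preadipocytes, 0.154 to 0.188% in DPP4+ progenitors and 0.188 to 0.198% in ICAM1+ preadipocytes. Pdgfra, which marks fibroblasts and adipose progenitors, was found in all 12 libraries, at 118 to 240 CPM in perivascular preadipocytes and 388 to 755 CPM elsewhere.

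Perivascular library 1 of each stage stood apart from its group. Perivascular preadipocyte library 1 held less of Thrsp (a log2 difference of -1.80 from the mean of the other 2), Gpd1 (-1.18) and Agpat2 (-1.203), and more of Lpin3 (1.35), Fads1 (1.196) and Scd2 (1.12). Perivascular progenitor library 1 held more of Agpat3 (1.96), Agpat5 (1.48) and Me1 (1.27), and less of Fasn (-0.93). DPP4+ library 2 stood apart by its haematopoietic markers, whose summed level was 445 CPM against 105 and 126 CPM in the other 2. DPP4+ library 1 held 45.6 CPM of summed adipocyte markers (13 genes) against 264 and 325 CPM in the other 2, and less of Pck1, Gpd1 and Mlxipl than they did. Counts of calls are also given without perivascular library 1 of each stage and DPP4+ library 2, and every one of the calls among the 35 genes was kept when these 3 were left out together. Because these 3 stood apart, leaving them out narrows the spread within groups, so it cannot show that a call holds. Other alternatives lost some of the calls, as given beside the genes. Further genes passed then, in both directions except between progenitors, where the further calls were lower only. More of all genes passed too: 30.1% between progenitors, 56.3% between preadipocytes, 51.01% with stage in perivascular cells, 25.7% with stage in inguinal cells and 40.1% in the interaction.

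Among preadipocytes, perivascular cells held more RNA for the 4 regulators, for Gpd1 and Pck1 of the supply of glycerol 3-phosphate and for Dgat1 and Dgat2 of the last step of triglyceride assembly than inguinal ICAM1+ cells. The test called 16 of the 35 genes higher and 6 lower. Over all genes tested, 23.5% were called higher and 21.4% lower in the same comparison. The median log2 difference was 0.42 over the 35 genes and 0.04 over all genes. Without the 3 libraries that stand apart 18 were higher and 11 lower. By step, 4 of 4 regulators were higher, and of 3 glycerol 3-phosphate genes 2 were higher and 1 lower. Of 7 acyltransferases 5 were higher and 1 lower, but the calls of Gpam, Agpat3 and Lpgat1 were lost in some alternatives. Lipins and diacylglycerol acyltransferases had 2 higher and 1 lower of 5, and carbon supply and fatty acid synthase 1 and 1 of 7. Desaturases had 1 higher and 1 lower of 5, and elongation genes 1 and 1 of 4.

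Within perivascular fat, 12 of the 35 genes were called higher and 5 lower in preadipocytes than in progenitors. The background was 16.8% higher and 16.1% lower over all genes, and the medians were 0.29 over the 35 genes and -0.05 over all. With library totals in place of TMM factors the split was 13 higher and 2 lower, and the median of all genes moved to 0.12. The split moved further with other alternatives: it was 15 and 12 without the 3 libraries that stand apart, 14 and 10 without perivascular preadipocyte library 1 alone, 18 and 11 with limma-voom, and 11 and 0 with the 2 groups fitted alone. This comparison and the one between preadipocytes share the perivascular preadipocyte libraries, so their calls are not independent. All 4 regulators, Gpd1, Pck1, Agpat2, Agpat5, Dgat1, Dgat2, Scd1 and Tecr were the genes called higher. Lpin3, Agpat4, Gpd1l, Fads3 and Elovl1 were called lower.

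Within inguinal fat 1 of the 35 genes was called higher and 2 lower in ICAM1+ preadipocytes than in DPP4+ progenitors. Over all genes 9.34% were called higher and 8.61% lower there. Nr1h3 was the gene called higher, and Scd1 and Agpat4 were called lower. Between the progenitors of the depots, 4 genes were called higher in perivascular cells (Thrsp, Gpd1, Agpat2, Mlxipl) and 4 lower (Agpat4, Acss2, Aacs, Agpat1), where 13.0% and 11.8% of all genes were called. The medians over the 35 genes in these comparisons were -0.12 and -0.03. With library totals as the scale, which moved the medians of all genes to 0.40 and 0.48, the splits were 4 higher and 2 lower within inguinal fat, and 11 higher and 1 lower between progenitors. Without the 3 libraries that stand apart they were 5 and 4 within inguinal fat, and 4 and 6 between progenitors.

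The direct test of whether the change from progenitor to preadipocyte differed between depots, the interaction, called 7 of the 35 genes with a more positive change in perivascular cells and 0 with a more negative one. Over all genes 6.37% were called in the positive and 8.66% in the negative direction. With library totals the split was 5 and 1, the negative call being Gpd1l, and the median of all genes moved to -0.21. The 7 were Scd1, Srebf1, Thrsp, Gpd1, Pck1, Dgat1 and Dgat2. The count depended on single libraries: 4 genes passed without DPP4+ library 3 or ICAM1+ library 3. The absence of negative calls did not hold in every alternative. Leaving out perivascular preadipocyte library 1 gave 11 positive and 5 negative calls, and leaving out perivascular progenitor library 1 gave 10 and 2. Without the 3 libraries that stand apart there were 15 and 9, and with limma-voom 16 and 5.

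Markers of mature adipocytes moved with these counts where perivascular preadipocytes entered. The summed level of 13 such markers was 4134 to 11765 CPM in perivascular preadipocytes, lowest in library 1, against 947 to 1089 CPM in perivascular progenitors, 45.6 to 325 CPM in DPP4+ and 199 to 279 CPM in ICAM1+ cells. A single gene, the carbonic anhydrase gene Car3, made up 82.0 to 83.9% of that sum in perivascular libraries. Without it the other 12 summed to 695 to 2027 CPM in perivascular preadipocytes, 153 to 178 CPM in perivascular progenitors, 29.7 to 305 CPM in DPP4+ and 88.8 to 122 CPM in ICAM1+ cells, so that DPP4+ libraries 2 and 3 (233 and 305 CPM) then lay above the perivascular progenitors. Of the 13, all were called higher with stage in perivascular cells, where 16.8% of all genes were. Between preadipocytes 11 were called higher (23.5% of all genes), and 9 were called in the interaction with a positive sign (6.37%). Between progenitors 6 were called higher and 1 lower (13.0% and 11.8% of all genes). With stage in inguinal cells 3 were called higher and 1 lower (9.34% and 8.61%). No marker was at 0 in all libraries of a group. Adipoq was at 322 to 1095 CPM in perivascular preadipocytes and 3.79 to 33.7 CPM in DPP4+ progenitors, and Lep was at 0 in DPP4+ library 3. Pdgfra was called lower in perivascular preadipocytes than in the other preadipocytes, and the sum of 13 fibroblast and preadipocyte markers was 27208 to 72268 CPM there against 103528 to 321945 CPM in the other groups. Most of that sum was the collagen gene Col3a1, at 16124.5 to 47233.6 CPM in perivascular preadipocytes. Of these 13 markers, 10 were called lower and 2 higher between preadipocytes, where 21.4% and 23.5% of all genes were. Pparg (158 ± 53.7 against 73.2 ± 3.20 CPM) and Ebf2 (255 ± 58.8 against 127 ± 6.11 CPM) had higher means than in ICAM1+ cells. Among the markers with lower means were Ly6a (4.18 ± 0.890 against 842 ± 47.6 CPM) and Icam1 (39.5 ± 11.9 against 497 ± 11.1 CPM). Icam1 is the gene of the surface marker that names the inguinal preadipocytes. In pooled sorted cells, more cells of a type and more RNA per cell cannot be told apart, and the part of these markers in the results was not tested. Mesothelial markers summed to 135 to 249 CPM in perivascular progenitors, 33.3 to 78.2 CPM in perivascular preadipocytes and 30.5 to 45.9 CPM in inguinal cells. Between preadipocytes, 7 of these 10 were called higher in perivascular cells, where 23.5% of all genes were. The other 3, the keratin genes Krt8, Krt18 and Krt19, were called lower. Msln was at 3.81 to 15.7 CPM in perivascular preadipocytes and 0.155 to 0.490 CPM in ICAM1+ cells. Krt19 was at 2.74 to 6.40 CPM and 7.60 to 15.2 CPM in the same groups.

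**Figure D1:**
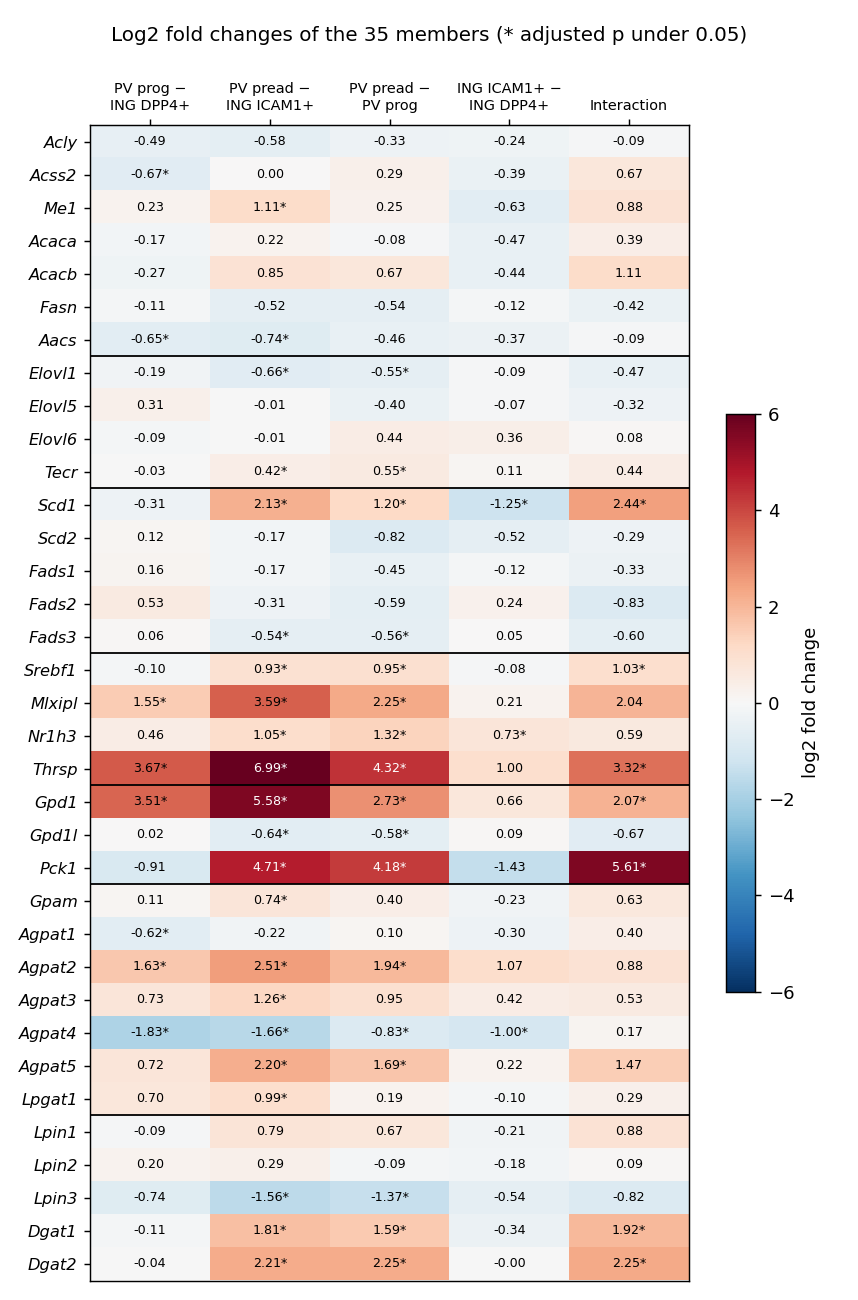
Log2 fold changes of the 35 genes (rows, in order of role and separated by lines) in the 5 comparisons (columns), coloured from blue (lower in the first-named group) to red (higher; for the interaction, a more positive change in perivascular cells), with a star at an adjusted p under 0.05. The regulators and glycerol 3-phosphate genes hold the deepest reds, with Thrsp at 6.99 and Gpd1 at 5.58 between preadipocytes, while the top block of carbon supply genes is pale.

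Thrsp encodes SPOT14, a nuclear protein of lipogenic tissues (chromosome 7, 97412938 to 97417730). It was at 49.3, 168 and 176 CPM in perivascular preadipocytes and at 5.21, 7.02 and 7.47 CPM in perivascular progenitors. In inguinal cells it was at 0.214, 0.835 and 0.492 CPM in DPP4+ progenitors and at 1.47, 1.12 and 0.514 CPM in ICAM1+ preadipocytes. Every perivascular library lay above every inguinal one, and the preadipocyte libraries lay above the progenitor libraries within perivascular fat. The log2 difference was 6.99 ± 0.55 between preadipocytes (adjusted p = 2.51e-06) and 3.67 ± 0.59 between progenitors (adjusted p = 0.000616). The change with stage was 4.32 ± 0.47 in perivascular cells (adjusted p = 0.000106), and in inguinal cells it was 1.001 ± 0.68 and did not pass (adjusted p = 0.37). The interaction was 3.32 ± 0.88 (adjusted p = 0.0254), and it did not pass without DPP4+ library 2 (adjusted p = 0.12) or 3 (0.0637), or without ICAM1+ library 3 (0.0507).

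Mlxipl encodes ChREBP, a transcription factor that responds to glucose (chromosome 5, 135089890 to 135138382). It was at 11.4, 25.7 and 25.3 CPM in perivascular preadipocytes and at 3.56, 4.89 and 4.60 CPM in perivascular progenitors. In DPP4+ progenitors it was at 0.500, 2.66 and 1.31 CPM, and in ICAM1+ preadipocytes at 1.23, 2.32 and 1.54 CPM. The perivascular groups again overlapped neither each other nor the inguinal groups, while the inguinal groups overlapped. Mlxipl was higher by 3.59 ± 0.47 between preadipocytes (adjusted p = 0.000105) and rose by 2.25 ± 0.44 with stage in perivascular cells (adjusted p = 0.00269). It was higher by 1.55 ± 0.48 between progenitors (adjusted p = 0.0334). That call was lost with 5 of 21 alternatives, among them without perivascular progenitor library 2 or 3 or DPP4+ library 1 or 3, with adjusted p between 0.0651 and 0.104. The interaction was 2.04 ± 0.66 and did not pass (adjusted p = 0.0557), though it did with the replicate block (1.89, adjusted p = 0.0252).

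Sequences just upstream of RefSeq start sites are shown for Thrsp, Mlxipl and Fasn. The first pair differed most among the regulators, and Fasn is the central synthase. The sequences are on mouse build GRCm38.p6, where the RefSeq table held 28 of the 35 genes. By the GENCODE gene positions given above, the Thrsp stretch and the second Mlxipl stretch lie within the gene. Capitals mark a CCAAT box (CCAAT on either strand) in Fasn and Thrsp, an E-box (CACGTG) at the first start of Mlxipl, and a match to the SREBP site TCACNCCAC at the second.
Fasn, chr11:120824588-120824647, minus strand: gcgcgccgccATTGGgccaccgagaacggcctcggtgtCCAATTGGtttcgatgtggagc
Thrsp, chr7:97417586-97417615, minus strand: gggctgtgttgctCCAATggttgggctttg
Mlxipl, the first start, chr5:135089770-135089829, plus strand: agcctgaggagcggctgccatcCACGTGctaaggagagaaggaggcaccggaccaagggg
Mlxipl, the second start, chr5:135106731-135106790, plus strand: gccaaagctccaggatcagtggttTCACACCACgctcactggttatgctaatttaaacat
In Fasn 2 CCAAT boxes on opposite strands fall within 60 bases, and the second overlaps a further match on the other strand. Both strands were searched over 250 bases before to 50 after each start. A CCAAT box was found for 17 of the 28 genes, against 41.1% of all 27025 genes in the table. The GC box GGGCGG was also found for 17 of 28, against 38.2% of all genes. The E-box was found for 5 of 28 (Elovl5, Gpd1l, Lpin2, Lpin3 and Mlxipl) against 8.09%, and the SREBP site for Mlxipl alone against 1.44%. These are matches of letters, with no measure of binding, and the counts do not separate the start sites of a gene. All 28 genes had enough counts to be tested here, while the 27025 were taken whether tested or not. The shares therefore compare unlike sets.

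Srebf1 encodes SREBP1, the main transcription factor of fatty acid synthesis genes (chromosome 11, 60199089 to 60222581). It was at 124, 197 and 178 CPM in perivascular preadipocytes and at 67.3, 93.1 and 97.9 CPM in perivascular progenitors. The inguinal libraries were at 86.7, 88.6 and 102 CPM in DPP4+ and 84.0, 89.5 and 89.1 CPM in ICAM1+ cells. Perivascular preadipocytes thus stood alone, and the other 3 groups overlapped. Srebf1 rose by 0.95 ± 0.19 with stage in perivascular cells (adjusted p = 0.00289) and was higher by 0.93 ± 0.19 than in ICAM1+ cells (adjusted p = 0.00183). The interaction was 1.03 ± 0.26 (adjusted p = 0.0219), a call lost with 7 of 20 alternatives at adjusted p between 0.0504 and 0.0667. These were library totals as the scale (0.83), or 1 library left out: perivascular preadipocyte 2 or 3, DPP4+ 3, or any of the ICAM1+ libraries.

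Nr1h3 encodes LXR alpha, a nuclear receptor for oxysterols that activates Srebf1 (chromosome 2, 91184061 to 91202834). It was at 18.6, 33.1 and 30.8 CPM in perivascular preadipocytes and at 11.9, 9.90 and 11.1 CPM in perivascular progenitors. In inguinal cells it was at 7.07, 8.35 and 8.53 CPM in DPP4+ progenitors and at 12.3, 14.9 and 12.5 CPM in ICAM1+ preadipocytes. Here the preadipocyte libraries lay above the progenitor libraries in each depot. The change was 1.32 ± 0.21 in perivascular cells (adjusted p = 0.00102) and 0.73 ± 0.22 in inguinal cells (adjusted p = 0.034), where the call was lost whenever 1 of the 6 inguinal libraries was left out (adjusted p between 0.0633 and 0.129). The interaction did not pass (0.59 ± 0.30, adjusted p = 0.2).

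Glycerol 3-phosphate supply held the largest differences of any enzymes among the 35, in Gpd1 and Pck1. Gpd1 makes glycerol 3-phosphate from a glycolytic intermediate (chromosome 15, 99717515 to 99725005). It was at 202, 531 and 392 CPM in perivascular preadipocytes and at 39.9, 70.6 and 58.8 CPM in perivascular progenitors. DPP4+ libraries held 1.43, 7.82 and 5.66 CPM and ICAM1+ libraries 8.39, 7.59 and 7.50 CPM. All perivascular libraries lay above all inguinal ones, with log2 differences of 5.58 ± 0.52 between preadipocytes (adjusted p = 9.83e-06) and 3.51 ± 0.49 between progenitors (adjusted p = 0.000206). The rise with stage was 2.73 ± 0.46 in perivascular cells (adjusted p = 0.00117), and the inguinal change of 0.66 ± 0.47 did not pass (adjusted p = 0.398). The interaction was 2.07 ± 0.64 (adjusted p = 0.0476). It did not pass with 11 of 20 alternatives, between 1.57 and 2.24 (adjusted p between 0.0521 and 0.133), among them leaving out library 2 or 3 of the perivascular or DPP4+ groups or any ICAM1+ library. Of Gpd1's exon length 13.0% overlaps another annotated gene, Gm16537, whose reads cannot be told apart if counting ignored strand.

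Pck1, whose product feeds glyceroneogenesis, the making of glycerol 3-phosphate from non-sugar carbon, sits on chromosome 2 (173153048 to 173159273). It was at 60.5, 169 and 101 CPM in perivascular preadipocytes and at 3.82, 5.87 and 8.60 CPM in perivascular progenitors. In DPP4+ progenitors it was at 2.07, 14.1 and 18.2 CPM, a wide spread, and in ICAM1+ preadipocytes at 3.55, 4.65 and 4.42 CPM. Perivascular preadipocytes lay above all other libraries, by 4.71 ± 0.64 against ICAM1+ cells (adjusted p = 0.000137) and 4.18 ± 0.63 against perivascular progenitors (adjusted p = 0.000673). The inguinal stage change was -1.43 ± 0.59 (adjusted p = 0.123), and the interaction was 5.61 ± 0.85 (adjusted p = 0.00119). That interaction call held with each of 20 alternatives, between 5.05 and 6.11. Without DPP4+ library 1 Pck1 was called lower with stage in inguinal cells (-1.93, adjusted p = 0.00777).

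Gpd1l, a paralogue of Gpd1 with the same reaction, was lower in perivascular preadipocytes. It was at 45.6 ± 8.82 CPM in perivascular preadipocytes against 68.0 ± 10.8 in perivascular progenitors, 66.9 ± 8.55 in DPP4+ and 71.2 ± 11.9 in ICAM1+ cells. The log2 difference from ICAM1+ cells was -0.64 ± 0.19 (adjusted p = 0.0156, and 0.0754 without ICAM1+ library 3), and the stage change was -0.58 ± 0.19 (adjusted p = 0.0352), not called with the replicate block (-0.57, adjusted p = 0.0531) or without perivascular progenitor library 2 or 3, perivascular preadipocyte library 3 or ICAM1+ library 2 (adjusted p between 0.052 and 0.124). Per exon length, Gpd1 made up 92.4 ± 4.17% of the pair in perivascular preadipocytes, 58.2 ± 3.85% in perivascular progenitors, 11.1 ± 6.65% in DPP4+ and 16.1 ± 3.01% in ICAM1+ cells.

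The diacylglycerol acyltransferases, unrelated enzymes that each add the last acyl chain, rose together in perivascular preadipocytes. Dgat1 (chromosome 15, 76502015 to 76511953) was at 46.0, 77.4 and 66.8 CPM there and at 26.9, 17.6 and 18.8 CPM in perivascular progenitors. In inguinal cells Dgat1 was at 18.3, 25.3 and 25.02 CPM in DPP4+ and 17.03, 21.02 and 16.2 CPM in ICAM1+ libraries. Perivascular preadipocytes lay above every other library, and the remaining 3 groups overlapped. The rise with stage was 1.59 ± 0.23 in perivascular cells (adjusted p = 0.000583), the difference from ICAM1+ cells 1.81 ± 0.23 (adjusted p = 8.98e-05), and the interaction 1.92 ± 0.32 (adjusted p = 0.00236).

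Dgat2 (chromosome 7, 99153658 to 99182719) was at 50.6, 105 and 90.8 CPM in perivascular preadipocytes and at 20.7, 16.4 and 14.7 CPM in perivascular progenitors. It was at 14.9, 18.3 and 20.1 CPM in DPP4+ and 15.4, 18.6 and 19.2 CPM in ICAM1+ libraries, which overlap each other and the perivascular progenitors. Its rise was 2.25 ± 0.25 with stage (adjusted p = 0.000126), the difference from ICAM1+ cells 2.21 ± 0.25 (adjusted p = 3.82e-05), and the interaction 2.25 ± 0.35 (adjusted p = 0.00132). The interaction calls of Dgat1 and Dgat2 held with each of 20 alternatives. Per exon length Dgat1 made up 44.4 ± 2.99% of the pair in perivascular preadipocytes, and 50.7 to 56.4% on average in the other groups.

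The lipins, which remove the phosphate of phosphatidate, did not follow one pattern. Lpin3 fell by 1.37 on the log2 scale with stage in perivascular cells (SE 0.32, adjusted p = 0.00696, and 0.0532 with the 2 groups fitted alone). It was lower than in ICAM1+ cells by -1.56 ± 0.32 (adjusted p = 0.00194), at 6.72 ± 4.03 CPM against 17.4 ± 2.17 in perivascular progenitors, 29.0 ± 5.44 in DPP4+ and 19.9 ± 1.02 in ICAM1+ cells. Lpin1, the lipin known for its role in fat, was at 26.6 ± 5.75 CPM in perivascular and 15.4 ± 0.972 CPM in ICAM1+ preadipocytes, with every library of the former above every library of the latter, but did not pass (0.79 ± 0.32, adjusted p = 0.0616). With the replicate block Lpin1 was called (0.77, adjusted p = 0.033), and likewise without perivascular progenitor library 1 (0.74, adjusted p = 0.0457) or DPP4+ library 1 (0.79, adjusted p = 0.0116). Lpin2 was between 17.6 and 31.2 CPM in all libraries and was called in none of the 5 comparisons.

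**Figure D2:**
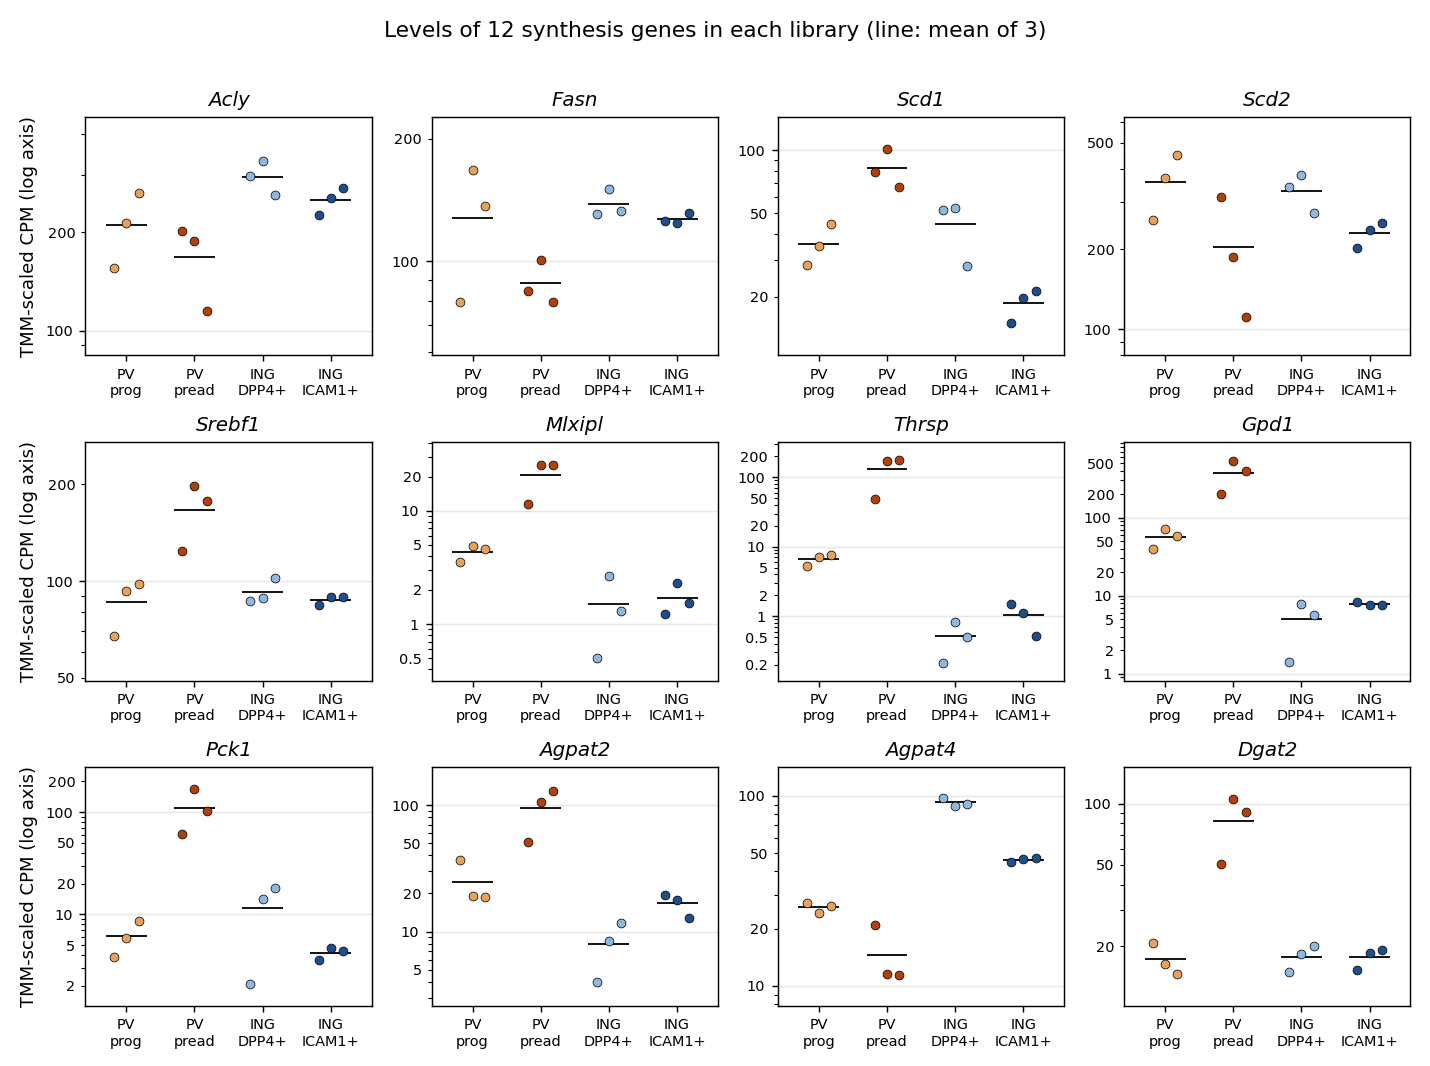
CPM on log axes (vertical) of 12 of the genes in each library, by group (PV, perivascular, and ING, inguinal), with a line at the mean of 3. Thrsp, Gpd1, Pck1 and Dgat2 stand highest in perivascular preadipocytes, Agpat4 stands highest in DPP4+ progenitors, and Fasn and Acly show no such rise.

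AGPAT enzymes load the second acyl chain. Agpat2, the isoform whose loss causes lipodystrophy, lies on chromosome 2 (26593057 to 26604417). It was at 50.8, 107 and 129 CPM in perivascular preadipocytes and at 36.6, 18.9 and 18.8 CPM in perivascular progenitors. In DPP4+ progenitors it was at 4.0, 8.43 and 11.6 CPM and in ICAM1+ preadipocytes at 19.5, 17.9 and 12.9 CPM. Preadipocyte libraries lay above progenitor libraries in each depot. Agpat2 was higher in perivascular cells by 2.51 ± 0.42 between preadipocytes (adjusted p = 0.000493) and by 1.63 ± 0.42 between progenitors (adjusted p = 0.0124). It rose by 1.94 ± 0.41 with stage in perivascular cells (adjusted p = 0.00398), and the inguinal change was 1.07 ± 0.42 (adjusted p = 0.103), which passed without perivascular preadipocyte library 1 (1.06, adjusted p = 0.0474).

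Agpat4, a brain-enriched isoform, was called lower in the comparisons in which Agpat2 was called higher. It was at 97.7, 88.9 and 91.0 CPM in DPP4+ progenitors and 45.0, 46.5 and 47.1 CPM in ICAM1+ preadipocytes. In perivascular cells it was at 27.3, 24.2 and 26.3 CPM in progenitors and 20.8, 11.5 and 11.4 CPM in preadipocytes. No 2 groups overlapped, and preadipocytes were lower than progenitors in each depot. The stage change was -0.83 ± 0.20 in perivascular cells (adjusted p = 0.00886, and 0.075 with the 2 groups fitted alone) and -1.002 ± 0.20 in inguinal cells (adjusted p = 0.00362). The depot difference was -1.83 ± 0.21 between progenitors (adjusted p = 3.63e-05) and -1.66 ± 0.21 between preadipocytes (adjusted p = 7.1e-05). Per exon length Agpat2 made up 87.1 ± 9.995% of the pair with Agpat4 in perivascular preadipocytes, 53.4 ± 8.30% in perivascular progenitors, 31.3 ± 5.03% in ICAM1+ and 9.88 ± 4.58% in DPP4+ cells.

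Agpat5 was at 43.6, 70.4 and 81.2 CPM in perivascular preadipocytes against 13.5, 13.8 and 15.3 CPM in ICAM1+ cells, and was called higher there (2.20 ± 0.37, adjusted p = 0.000542). In perivascular progenitors library 1 held 35.4 CPM and the others 11.97 and 13.2 CPM. The stage change was 1.69 ± 0.36 (adjusted p = 0.00456), and the interaction of 1.47 ± 0.51 (adjusted p = 0.0706) passed without perivascular progenitor library 1 (2.11, adjusted p = 0.000388) or perivascular preadipocyte library 1 (1.68, adjusted p = 0.0235). Of its exon length 18.9% overlaps the gene Gm35934. Agpat3 was high in the same library, at 71.5 CPM in perivascular progenitor library 1 against 18.7 and 17.9 CPM, and 43.9 to 85.0 CPM in perivascular preadipocytes. Its stage change of 0.95 ± 0.44 (adjusted p = 0.112) was 1.87 without that library (adjusted p = 6.71e-05) and 1.19 without perivascular preadipocyte library 1 (adjusted p = 0.0489).

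Gpam, the mitochondrial enzyme that loads the first acyl chain (chromosome 19, 55067268 to 55127238), was called in 1 comparison. It was at 25.96, 28.4 and 13.6 CPM in perivascular preadipocytes and 23.4, 14.2 and 13.9 CPM in perivascular progenitors. DPP4+ libraries held 14.6, 15.7 and 17.2 CPM and ICAM1+ libraries 11.2, 15.2 and 14.1 CPM. The groups overlapped in every comparison, and the call between preadipocytes (0.74 ± 0.28, adjusted p = 0.0436) was lost with 13 of 21 alternatives, among them the replicate block (0.71, adjusted p = 0.0698) and the loss of any library of the DPP4+ or ICAM1+ groups, perivascular preadipocyte library 1 or 2, or perivascular progenitor library 2. Adjusted p ran from 0.0502 to 0.165 in these. Agpat3 (1.256) and Lpgat1 (0.99) were also called higher between preadipocytes (adjusted p = 0.0343 and 0.0199). Leaving out any ICAM1+ library or perivascular preadipocyte library 2 or 3 ended the call of Agpat3 (adjusted p between 0.0784 and 0.105), and leaving out ICAM1+ library 2 or 3 or perivascular preadipocyte library 3 ended that of Lpgat1 (0.0626 to 0.0986). Agpat1 was called lower in perivascular than DPP4+ progenitors (-0.62 ± 0.20, adjusted p = 0.0346), but not with 10 of 21 alternatives (-0.43, adjusted p = 0.168, without DPP4+ library 3).

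**Figure D3:**
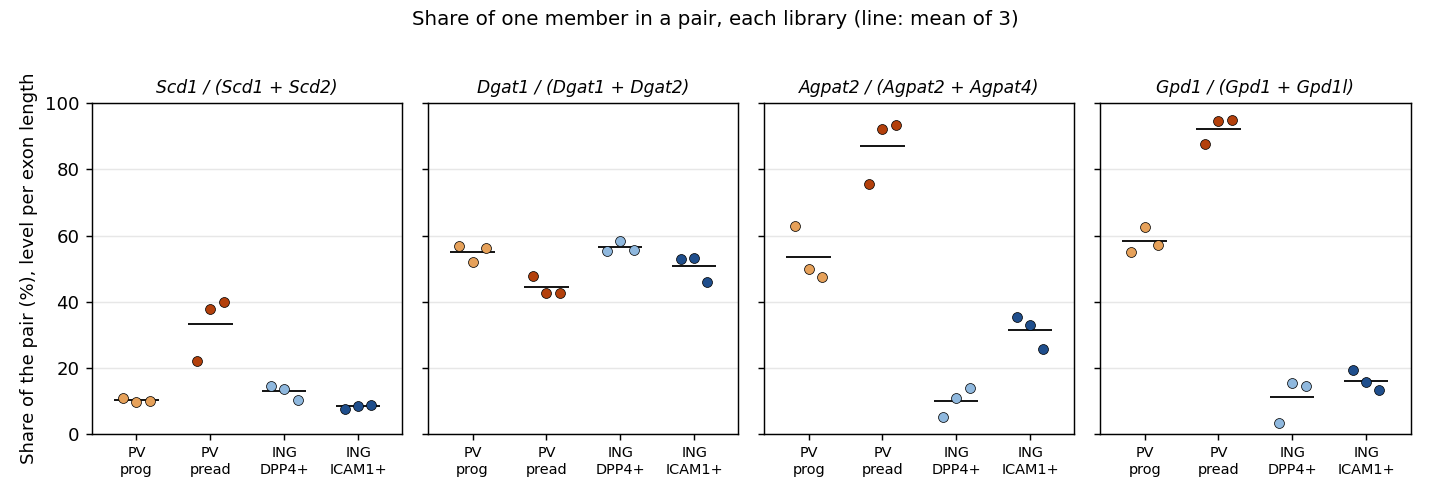
Share of the first-named gene in a pair of genes with the same reaction (vertical axis, percent, from CPM divided by exon length) in each library, by group, with a line at the mean of 3. The shares of Scd1, Agpat2 and Gpd1 are highest in perivascular preadipocytes, at 33.2, 87.1 and 92.4% on average, while that of Dgat1 is lowest there, at 44.4%.

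Fasn, the synthase itself (chromosome 11, 120805846 to 120824547), was at 84.7, 101 and 79.6 CPM in perivascular preadipocytes and 79.3, 168 and 137 CPM in perivascular progenitors. It was at 131, 151 and 133 CPM in DPP4+ and 126, 124 and 131 CPM in ICAM1+ libraries. All perivascular preadipocyte libraries lay below all ICAM1+ libraries, but the difference did not pass (-0.52 ± 0.22, adjusted p = 0.0669). Fasn was called lower there with DESeq2 (-0.56, adjusted p = 0.0479) and limma-voom (-0.37, adjusted p = 0.0131), and without perivascular progenitor library 2 (-0.57, adjusted p = 0.0367). The stage change in perivascular cells was -0.54 ± 0.22 (adjusted p = 0.0771). Without perivascular progenitor library 1, which lay far below the other 2, that change was called at -0.84 (adjusted p = 0.00108), the depot difference at -0.57 (adjusted p = 0.00488) and the interaction at -0.71 (adjusted p = 0.027).

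Acly (chromosome 11, 100476353 to 100528000) was at 202, 188 and 115 CPM in perivascular preadipocytes and 156, 214 and 263 CPM in perivascular progenitors. It was at 299, 330.3 and 262 CPM in DPP4+ and 226, 255 and 275 CPM in ICAM1+ libraries. Perivascular preadipocytes lay below ICAM1+ cells in every library, by -0.58 ± 0.23, and did not pass (adjusted p = 0.055). It passed once perivascular preadipocyte library 1 (-0.79, adjusted p = 0.0198) or progenitor library 1 (-0.62, adjusted p = 0.0231) or 3 (-0.58, adjusted p = 0.0466) was removed, and with DESeq2 (-0.61, adjusted p = 0.0357). Acaca (chromosome 11, 84129672 to 84401651) was at 14.6, 20.3 and 22.4 CPM in perivascular preadipocytes and 13.6, 23.7 and 23.2 CPM in perivascular progenitors. Acaca was at 25.003, 24.7 and 18.3 CPM in DPP4+ and 13.1, 17.8 and 18.2 CPM in ICAM1+ libraries, and was called in no comparison (0.22 ± 0.25 between preadipocytes, adjusted p = 0.48). Of its 50-base stretches 30.4% recur in other annotated genes, so its counts are uncertain.

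Me1 (chromosome 9, 86581371 to 86695953) was the gene of this step called higher in perivascular than ICAM1+ preadipocytes (1.11 ± 0.29, adjusted p = 0.00823). It was at 66.7, 50.9 and 56.2 CPM there, against 26.5, 28.5 and 25.4 CPM. Perivascular progenitors held 79.9, 33.1 and 32.9 CPM and DPP4+ cells 36.1, 40.5 and 47.8 CPM. The stage change in perivascular cells was 0.25 ± 0.29 (adjusted p = 0.53), and 0.76 without perivascular progenitor library 1 (adjusted p = 0.00316). Of its 50-base stretches 22.9% recur in other annotated genes, Gm7049 and Gm7329. Aacs, which makes acetoacetyl-CoA from the ketone body acetoacetate, was lower in perivascular cells at each stage (-0.74 ± 0.19 and -0.65 ± 0.19 for preadipocytes and progenitors, adjusted p = 0.00794 and 0.0257). The latter call was lost with 5 of 21 alternatives, at -0.22 when libraries were scaled by their totals (adjusted p = 0.352), and without perivascular progenitor library 1 or 2 or DPP4+ library 2 or 3 (adjusted p between 0.0577 and 0.0865). Acss2 was called lower between progenitors (-0.67 ± 0.20, adjusted p = 0.0295), and was at -0.24 with library totals (adjusted p = 0.372). It did not pass without perivascular progenitor library 2 or 3, DPP4+ library 1 or 2 or perivascular preadipocyte library 2 (adjusted p between 0.0505 and 0.0925). Acacb, the carboxylase tied to fatty acid oxidation, was at 1.43 to 9.68 CPM and called in no comparison.

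Among the desaturases, Scd1 and Scd2 are stearoyl-CoA desaturases, which make oleate and palmitoleate. Scd1 (chromosome 19, 44394455 to 44407879) was at 79.0, 101 and 66.6 CPM in perivascular preadipocytes and 28.3, 34.9 and 44.3 CPM in perivascular progenitors. In inguinal cells it was at 51.9, 53.2 and 28.1 CPM in DPP4+ progenitors and 15.01, 19.7 and 21.4 CPM in ICAM1+ preadipocytes. The libraries separated by stage in each depot, in opposite directions. Scd1 rose by 1.198 ± 0.26 in perivascular cells (adjusted p = 0.00471) and fell by 1.25 on the log2 scale in inguinal cells (SE 0.26, adjusted p = 0.00494). The interaction was 2.44 ± 0.37 (adjusted p = 0.00116), and the difference between preadipocytes was 2.13 ± 0.27 (adjusted p = 7.57e-05). All 4 of these statements held with each alternative run, the interaction between 2.13 and 2.68.

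Scd2 (chromosome 19, 44293674 to 44306864) was at 313, 187 and 111 CPM in perivascular preadipocytes and 258, 368 and 449 CPM in perivascular progenitors. It was at 341, 379 and 273 CPM in DPP4+ and 203, 236 and 251 CPM in ICAM1+ libraries. The perivascular groups overlapped through preadipocyte library 1, and the stage change of -0.82 ± 0.31 did not pass (adjusted p = 0.0616). Without that library it was -1.31 (adjusted p = 0.00233), and without perivascular progenitor library 1 it was -1.06 (adjusted p = 0.0181). Per exon length Scd1 made up 33.2 ± 9.81% of the Scd1 and Scd2 total in perivascular preadipocytes, 10.1 ± 0.701% in perivascular progenitors, 12.8 ± 2.21% in DPP4+ and 8.28 ± 0.557% in ICAM1+ cells. The genes share 4.56% (Scd1) and 3.97% (Scd2) of their 50-base stretches with other annotated genes.

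The front-end desaturases of polyunsaturated fatty acids, Fads1 and Fads2, depended on the same library. Fads1 was at 206 CPM in perivascular preadipocyte library 1 and 117 and 69.1 CPM in the others, against 170.06 to 194 CPM in perivascular progenitors. Its stage change of -0.45 ± 0.28 (adjusted p = 0.244) was -0.98 without that library (adjusted p = 0.00182). For Fads2 the change was -0.59 ± 0.24 (adjusted p = 0.0784), and -0.94 without it (adjusted p = 0.00448). Fads3, a less studied relative, was called lower in perivascular preadipocytes than in ICAM1+ cells (-0.54 ± 0.19, adjusted p = 0.0339) and than in perivascular progenitors (-0.56 ± 0.19, adjusted p = 0.0399). The latter was lost with 13 of 21 alternatives, among them the replicate block (-0.57, adjusted p = 0.0544), and the former without any ICAM1+ library or perivascular preadipocyte library 2 or 3 (adjusted p between 0.0697 and 0.116).

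Of the 4 elongation genes, 1 was called higher and 1 lower between preadipocytes. These shares lie near those of all genes, 23.5% higher and 21.4% lower. Elovl6, which lengthens palmitate to stearate, was at 33.3, 39.2 and 38.7 CPM in perivascular preadipocytes and 25.7, 25.7 and 30.7 CPM in perivascular progenitors. DPP4+ libraries held 34.9, 25.7 and 26.9 CPM and ICAM1+ libraries 37.0, 41.6 and 33.7 CPM. The perivascular stage change of 0.44 ± 0.16 lay at the threshold (adjusted p = 0.0503) and passed with DESeq2 (0.41, adjusted p = 0.0483). Elovl1, for saturated very long chains, was called lower in perivascular preadipocytes than in ICAM1+ cells (-0.66 ± 0.18, adjusted p = 0.00887) and than in perivascular progenitors (-0.55 ± 0.17, adjusted p = 0.0293). The latter call of Elovl1 was lost without perivascular progenitor library 1 or 3 or preadipocyte library 2 or 3 (adjusted p between 0.0565 and 0.108). Tecr, the reductase that closes each elongation round, was called higher in the same comparisons (0.42 ± 0.15 and 0.55 ± 0.15, adjusted p = 0.0347 and 0.0128), the first lost with 12 of 21 alternatives, among them the replicate block (0.41, adjusted p = 0.054), and the second without perivascular progenitor library 2 or 3 (0.0668 and 0.057). Elovl5 was between 98.9 and 165 CPM in all libraries and was called in no comparison.

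**Figure D4:**
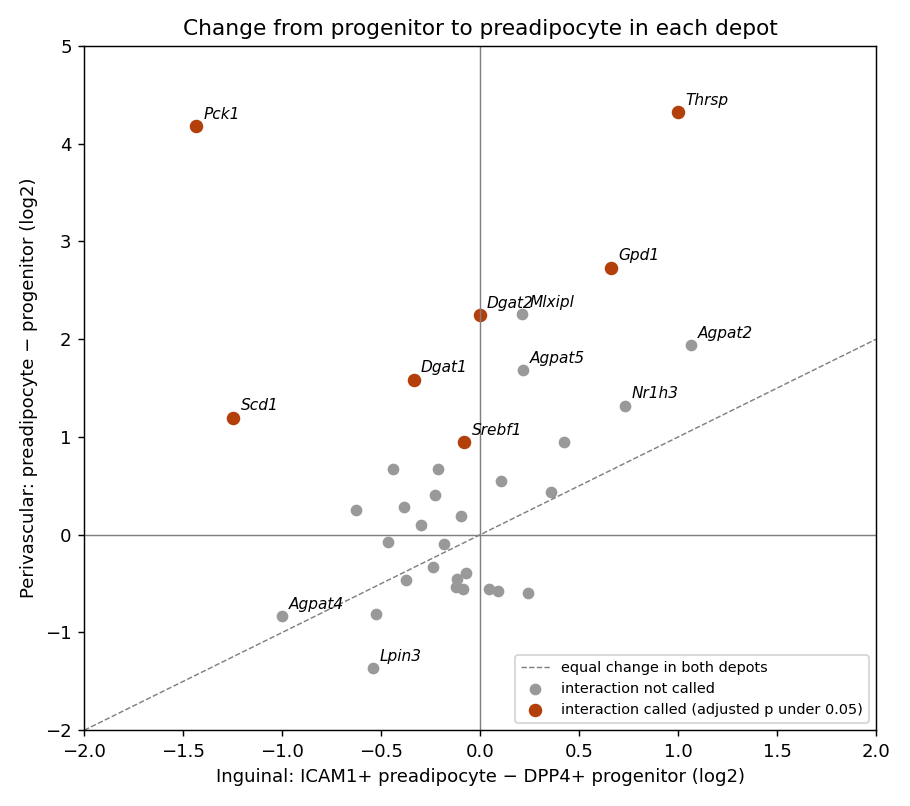
Log2 change from progenitor to preadipocyte of the 35 genes in inguinal (horizontal) and perivascular cells (vertical). Brown points are the 7 genes with a called interaction, all above the dashed line of equal change, from Srebf1 (1.03) to Pck1 (5.61), and grey points are the other 28.

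Levels can be compared between genes only per exon length. In ICAM1+ preadipocytes Tecr was highest at 97.5 CPM per kilobase, then Acly at 47.7, Elovl1 at 44.3 and Scd2 at 42.1, and Gpd1 was at 2.64 and Thrsp at 0.473. In perivascular preadipocytes Tecr was at 130.1 CPM per kilobase, Gpd1 at 127, Thrsp at 59.9 and Agpat2 at 44.7, with Acly at 31.9, Scd2 at 37.3 and Elovl1 at 28.02. Fasn was at 8.07 CPM per kilobase in perivascular and 11.6 in ICAM1+ preadipocytes. These levels per length assume that reads cover transcripts evenly.

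Other genes of the pathways, 70 of 73 listed being tested, gave 27 higher and 11 lower between preadipocytes, and 25 higher and 4 lower with stage in perivascular cells. Over all genes these shares were 23.5% and 21.4%, and 16.8% and 16.1%. Carbon and NADPH supply had 9 of 14 higher and 0 lower in each of these comparisons, and 7 positive interactions, where 6.37% of all genes were called. The lists of acyl-CoA synthetase and elongation genes, glycerolipid assembly genes and regulators lay near the background between preadipocytes. In the list of carbon and NADPH supply, the glycerol channel Aqp7 was higher by 2.76 between preadipocytes (adjusted p = 0.000125), at 92.7 ± 33.4 against 13.6 ± 1.52 CPM. The insulin-responsive glucose carrier Slc2a4 was higher by 1.76 (adjusted p = 0.000825) and glycerol kinase Gk by 1.66 (adjusted p = 0.000545). Slc2a4 rose in inguinal cells as well (2.24, adjusted p = 0.000596). Me2 (-1.53) and the glucose carrier Slc2a1 (-1.09) fell there (adjusted p = 6.03e-05 and 0.00117). Aqp7 and Slc2a4 are also among the 13 adipocyte markers.

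Among 18 acyl-CoA synthetase, elongation and desaturation genes outside the 35, 4 were higher and 4 lower between preadipocytes. Acsl1, which activates fatty acids for triglyceride synthesis and oxidation, was at 278 ± 116 CPM in perivascular and 27.1 ± 2.72 CPM in ICAM1+ preadipocytes (3.36, adjusted p = 2.05e-05). Its interaction was 2.47 (adjusted p = 0.0041). The dehydratase genes Hacd2 (1.67, adjusted p = 0.000312) and Hacd1 (1.59, adjusted p = 0.00276) were also higher, while Hacd4 fell with stage in inguinal cells (-2.75, adjusted p = 4.1e-06). Of 16 glycerolipid assembly genes 4 were higher and 4 lower between preadipocytes. The seipin gene Bscl2 was at 131 ± 34.7 against 58.8 ± 1.87 CPM (1.16, adjusted p = 0.000245), and the lipid droplet gene Fitm2 was higher by 1.18 (adjusted p = 0.00159). The phosphatase gene Plpp3 was lower by -1.22 (adjusted p = 0.000587).

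Of 14 regulators outside the 35, 3 were higher and 3 lower between preadipocytes. Stk11, which encodes the AMPK-activating kinase LKB1, was higher at 30.3 ± 10.8 against 11.1 ± 0.614 CPM (1.45, adjusted p = 0.011). Srebf2, the sterol arm of the SREBP family, was lower at 88.2 ± 14.9 against 172 ± 5.27 CPM (-0.96, adjusted p = 0.000454). Insig2, which holds SREBPs in the endoplasmic reticulum, was lower by -0.95 (adjusted p = 0.000133) and fell with stage in perivascular cells (-0.68, adjusted p = 0.00229). Mid1ip1, a paralogue of Thrsp, rose with stage in inguinal cells (1.39, adjusted p = 9.13e-05) and had a negative interaction (-1.17, adjusted p = 0.00624), opposite to that of Thrsp.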

How the data were processed

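RNA was sequenced from 12 libraries, 3 in each of 4 groups, made with a low-input SMART-Seq v4 poly(A) kit per the labels' protocols. The authors deposited whole-number read counts per gene. Reads were aligned with STAR 2.5.2a to build mm10, and DESeq2 1.26.0 is also named, per the submitters' processing notes. The counting tool, annotation and use of strand were not stated in what was read here. Perivascular progenitor columns carry another word for the cell stage than the sample titles and were matched by stage and number. No value column went unused for want of a sample (0).

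Counts were tested in R 4.3.3 with edgeR 4.0.16 (quasi-likelihood, TMM factors, 1 mean per group, all 12 libraries) after removing genes below edgeR's filter at a minimum count of 10. The Benjamini-Hochberg adjustment covered all 18855 genes, separately in each of 5 comparisons. Alternatives were library totals, median-ratio factors, no filter, a minimum count of 50, DESeq2 1.42.0, limma-voom 3.58.1 with library weights, the replicate number as a block, the 2 groups alone, each library left out, and 3 libraries left out together (perivascular progenitor 1, perivascular preadipocyte 1, DPP4+ 2). The scripts were tested on simulated data. The members and lists were chosen with earlier results of these data known. All 35 genes are described by role, 17 of them in every library, and outside them up to 3 called genes per list with the largest change and at least 10 CPM. A few outside this rule, such as Agpat4 and Agpat5, were added after their values were seen.

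Same-numbered replicates share mice across depots, per the labels, so the block is a real pairing there. The main tests left this pairing out, and the block was run only as an alternative. Deviations of 18 same-numbered library pairs correlated between -0.213 and 0.153 (median 0.00931), against -0.197 to 0.273 (median 0.00872) in 36 other pairs. The pairs joined libraries of any 2 groups, within a depot as well as across depots. The lowest value, -0.213, came from perivascular progenitor 3 with perivascular preadipocyte 3. Replicates are pools of mice, so p-values measure the spread between pools. Exon lengths and shared 50-base stretches came from GENCODE M21 on GRCm38, and promoter sequences from RefSeq on GRCm38.p6. Depth was 15614628 to 25674461 counts per library, without molecular identifiers.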

Additional observations from a re-analysis of the deposited data

Results flagged for a closer look

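For 7 genes the change from progenitor to preadipocyte differed between the depots by the test of the difference itself, perivascular minus inguinal, on the log2 scale. The calls of Pck1, Scd1, Dgat1 and Dgat2 held with every alternative, while those of Gpd1, Srebf1 and Thrsp were lost in some. Pck1 differed most, by 5.61, with 4.18 in perivascular and -1.43 in inguinal cells, the latter not passing. Thrsp differed by 3.32 and Gpd1 by 2.07, with changes of 4.32 and 2.73 in perivascular cells. Scd1 differed by 2.44, and it is the gene of the 7 that was called in opposite directions in the depots. Dgat2 differed by 2.25, Dgat1 by 1.92 and Srebf1 by 1.03, with no called change in inguinal cells. The summed adipocyte markers moved with these differences, and their part in them was not tested.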

How the results depend on the processing

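Of the calls among the 35 genes none changed direction under any alternative run. Counts of called genes within 1.5 times the main count are not listed. Between progenitors (8 called) the count was 5 to 10 with 1 library left out, 5 without perivascular progenitor 2 or 3 or DPP4+ 3. From progenitors to preadipocytes in perivascular cells (17 called) it was 29 with limma-voom, 11 with the 2 groups alone and 27 without the 3 libraries that stand apart. In inguinal cells (3 called) it was 6 with library totals, 10 with limma-voom, 11 with the 2 groups alone, 9 without the 3 libraries, and 2 to 5 with 1 left out (5 without perivascular preadipocyte 1). For the interaction (7 called) it was 21 with limma-voom, 24 without the 3 libraries, and 4 to 16 with 1 left out, and the 2 groups alone cannot give it. Of 118 uncalled differences 51 changed sign with at least 1 alternative, 35 of them with library totals. Among them, between progenitors, were Scd1 (-0.31, and 0.10 with library totals) and Pck1 (-0.91, and 0.13 with limma-voom). Scd2 between preadipocytes was another (-0.17, and 0.041 with library totals, and -0.68 to 0.072 with 1 library left out). With the replicate block the counts were 8, 21, 15, 3 and 8, and the block changed no call beyond those given beside their genes. The cause of these shifts was not tested.

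The groups hold 3 libraries each, so differences near the threshold depend on single libraries. Genes at a few CPM, such as Thrsp and Mlxipl in inguinal cells, rest on few reads there. Counts per gene do not separate isoforms or start sites.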

Other observations

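A second, mitochondrial pathway makes short acyl chains, among them the precursor of lipoic acid. Of its 8 listed genes 7 were called higher in perivascular than ICAM1+ preadipocytes and 0 lower, and 5 were called higher than in perivascular progenitors. Over all genes 23.5% were called higher between preadipocytes and 16.8% with stage in perivascular cells. Mecr, the last reductase of the cycle, was at 48.6, 103 and 104 CPM in perivascular preadipocytes, 20.6 to 25.04 CPM in perivascular progenitors and 14.2 to 20.3 CPM in inguinal libraries (2.18 between preadipocytes, adjusted p = 4.01e-05). Its interaction was 1.66 (adjusted p = 0.00754). Ndufab1, the acyl carrier protein, which is also a part of respiratory complex I, was at 92.0, 200.4 and 259.5 CPM there and 31.0 to 54.1 CPM in all other libraries. Its interaction was 1.60 (adjusted p = 0.017). Oxsm, the condensing enzyme, was at 4.72 to 10.7 CPM in all libraries and was the gene of the list not called between preadipocytes.

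Perivascular progenitor library 1 held Mcat at 33.3 CPM against 4.95 and 4.76 CPM in the other 2, and Lipt2 at 13.4 CPM against 1.21 and 1.08 CPM. These lie nearer the perivascular preadipocyte libraries, at 41.98 to 66.4 CPM for Mcat and 14.0 to 27.0 CPM for Lipt2. The same library was high in Agpat3, Agpat5, Lpgat1 and Me1, and its adipocyte markers summed to 947 CPM against 1089 and 1071 CPM. Among these markers, only Plin1 was higher in it than in both others, at 18.3 CPM against 7.94 and 7.57 CPM. Retn and Cfd lay between the other 2 libraries. The remaining markers were lowest in it, such as Cidec (4.34 against 7.08 and 9.58 CPM) and Ucp1 (3.25 against 5.53 and 8.66 CPM). The genes of this paragraph were singled out after their values were seen.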
